A study of Mus musculus with 9 samples.

Results

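The genes described here are 43 textbook markers of neurons, astrocytes and oligodendrocytes, read in laser-captured choroid plexus of mice with and without apolipoprotein E. They were chosen by symbol: 17 neuron genes, 12 astrocyte genes and 14 genes of oligodendrocytes and myelin. A probe set was used where the platform annotation gave it exactly 1 symbol and that symbol was on the list. By this rule 42 of the 43 genes had a probe set, out of 18194 genes with 1 on the array, and they had 102 of the 45101 probe sets. Grin1, a subunit of the NMDA glutamate receptor, was not analysed here.

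The study compared the choroid plexus of apoE-/- mice, which lack apolipoprotein E, a lipid carrier, with that of wild-type mice. Both groups were male mice of the C57BL strain, kept on normal chow and labelled 78 weeks old, with 4 apoE-/- arrays and 5 wild-type arrays. Plexus tissue was taken from frozen material by laser capture into Trizol, its RNA was cleaned on columns made for fatty tissue, and each sample was hybridised, after biotin labelling, to an Affymetrix-type array of its own. The labels do not say how many animals or captures a sample holds. The p-values for genotype thus set a difference only against how far these samples vary within a genotype. That spread may be technical, and the small number of arrays limits the precision. The Apoe probe set had signals of 12.2, 53.8, 23.5 and 13.5 on the apoE-/- arrays, none called present, against 20782, 18252, 23953.1, 18746 and 18488 on the wild-type arrays, all called present. Of all probe sets, 44.0% to 49.1% were called present on an array. The labelled tissue was checked against epithelial markers such as Ttr, Kl and Folr1: of the 18 listed markers with a probe set, 18 were called present on all 9 arrays, and their median range over the arrays was 0.30 on the log2 scale.

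As background, the choroid plexus is a folded epithelium around a vascular stroma that secretes cerebrospinal fluid, and it hangs in the ventricles beside brain tissue. Neurons release transmitter through a vesicle machinery of SNARE proteins and calcium sensors, astrocytes clear glutamate and water through membrane transporters and channels, and oligodendrocytes wrap axons in myelin, a lipid-rich membrane held together by a small set of abundant proteins. Some listed genes are not restricted to the cell type they mark: Sox9 and Cldn11, for example, are also known from choroid plexus epithelium.

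In these captures 24 of the 42 genes were tested, having a probe set with a present call on 4 or more of the 9 arrays: 10 neuron, 8 astrocyte and 6 oligodendrocyte genes, of which 17 were present on all 9. None of the 24 genes and none of their 39 tested probe sets differed between genotypes at an adjusted p under 0.05 by limma, against 2.59% of all 21478 tested probe sets and 1.66% of the 11089 tested genes read by their brightest tested probe set. At an unadjusted p under 0.05 there were 3 of the 39 probe sets (7.69%), against 16.5% of all tested probe sets. They were probe sets of Snap25, Aldh1l1 and Mbp (unadjusted p = 0.00421, 0.00661 and 0.0208 by limma). Read by the brightest tested probe set, 2 genes were under that limit, Snap25 and Aldh1l1. Neither did the groups separate: for 0 of the 39 probe sets were all apoE-/- arrays on one side of all wild-type arrays, against 6.89% of all tested probe sets. The median log2 difference, apoE-/- minus wild-type, was 0.10 over the 24 genes, 15 above 0 and 9 below, and 0.00 over all tested probe sets. The tested markers varied from array to array within a genotype, with wild-type replicate 1 at the top for 13 of the 24. In such bulk samples fewer cells of a type and less RNA per cell cannot be told apart.

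**Figure D1:**
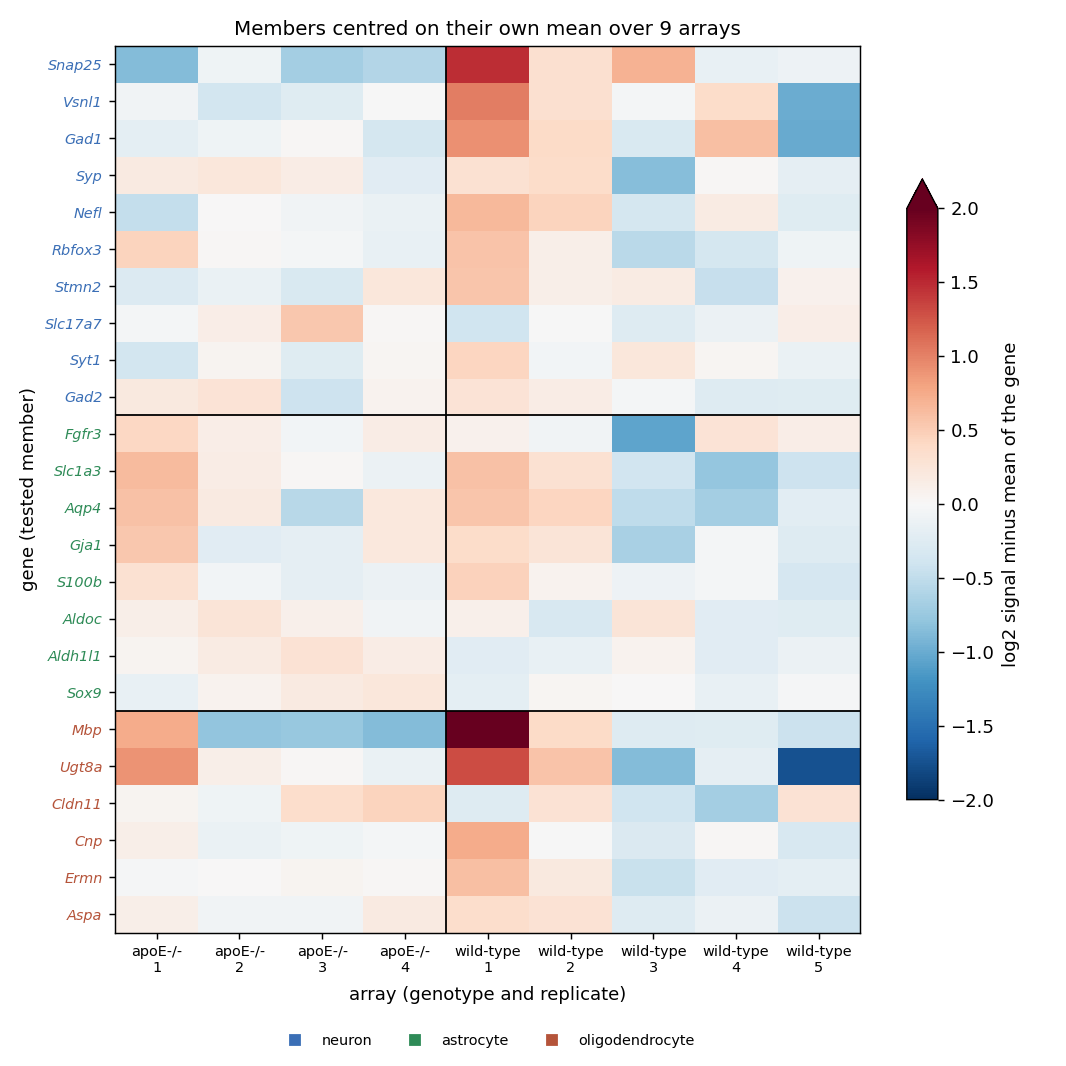
Heat map of the 24 tested genes (rows, grouped as neuron, astrocyte and oligodendrocyte genes and ordered by range) over the 4 apoE-/- and 5 wild-type arrays (columns). Colour gives the quantile-normalised log2 signal minus the mean of that gene over the 9 arrays, and the Mbp value of wild-type replicate 1 lies beyond the end of the scale. Wild-type replicate 1 is the highest of the 9 arrays for 13 of the 24 genes, and apoE-/- replicate 1 for 4 of the 8 astrocyte genes.

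The array order was read for each tested gene. Wild-type replicate 1 was the highest of the 9 arrays for 13 of the 24 genes: 7 of the 10 neuron genes, 5 of the 6 oligodendrocyte genes and 1 of the 8 astrocyte genes. Over all tested probe sets that array was the highest for 14.4%. Counting every tested probe set of the members, it was the highest for 19 of 39: 7 of 12 for neuron, 10 of 12 for oligodendrocyte, 6 of these from Mbp, and 2 of 15 for astrocyte genes. apoE-/- replicate 1 was the highest for 4 of the 8 astrocyte genes, against 7.54% of all tested probe sets, and for 0 of the 10 neuron genes. This was not particular to the listed astrocyte genes. The same array was the highest for 4 of 8 tested genes of ependyma, the lining of the ventricles, and for 3 of 9 other astrocyte genes. As the median over the genes of a class, centred on each gene's mean over 9 arrays, the neuron genes stood at -0.13, 0.02, -0.15 and -0.07 on the apoE-/- arrays and at 0.56, 0.24, -0.15, -0.05 and -0.15 on the wild-type arrays (log2). The astrocyte genes stood at 0.36, 0.14, -0.02 and 0.15 on the apoE-/- arrays and at 0.23, 0.06, -0.25, -0.19 and -0.22 on the wild-type arrays. The oligodendrocyte genes stood at 0.11, -0.07, -0.03 and 0.00 on the apoE-/- arrays and at 0.67, 0.29, -0.35, -0.19 and -0.37 on the wild-type arrays. Wild-type replicates 1 and 2 were thus above the gene means in all 3 classes, and the other wild-type arrays were below them. The same medians for the epithelial markers lay between -0.06 and 0.04.

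The oligodendrocyte genes had the single widest range, that of Mbp. Mbp encodes myelin basic protein, which compacts the myelin membrane from its inner face. Its brightest tested probe set had signals of 2175.3, 742.9, 765.0 and 701.5 on apoE-/- replicates 1 to 4, against 6151.2, 1682.0, 1066.2, 1088.5 and 976.6 on wild-type replicates 1 to 5. Wild-type replicate 1 was the highest of all and apoE-/- replicate 1 the highest of its genotype, so the groups overlapped although the other 3 apoE-/- arrays were below every wild-type array. The normalised signal of the highest array was 8.48 times that of the lowest. Between genotypes the log2 difference was -0.76 ± 0.46 (SE; n = 4 and 5), with a 95% interval of -1.75 to 0.24 and an adjusted p of 0.448 by limma. Without apoE-/- replicate 1 it was -1.14 (adjusted p = 0.259), without wild-type replicate 1 it was -0.29 (adjusted p = 0.688), and without both replicate 1 arrays, a choice made after the values were seen, it was -0.67 (adjusted p = 0.0872 by limma).

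The 6 tested Mbp probe sets were compared over the arrays. All 6 tested probe sets were highest on wild-type replicate 1, and 5 of the 6 were second highest on apoE-/- replicate 1. On apoE-/- replicate 1 they were 1.58 to 3.68 times the median of the other apoE-/- arrays, and on wild-type replicate 1 they were 2.78 to 6.3 times the median of the other wild-type arrays. Their log2 differences ran over the interval of -1.14 to -0.54, with adjusted p-values of 0.208 to 0.516 by limma. The 6 had 2, 4, 3, 1, 2 and 4 present calls on the apoE-/- arrays and, in the same order, 5, 5, 5, 3, 5 and 5 on the wild-type arrays. Those with fewer than 4 apoE-/- calls were tested only because of their wild-type calls. The 2 untested Mbp probe sets did not have wild-type replicate 1 as their highest array. The dimmer, with a present call on no apoE-/- array and on 1 wild-type array, was highest on wild-type replicate 4. The brighter, with a present call on no apoE-/- array and on 3 wild-type arrays, ran between 832.3 and 1099.9 in apoE-/- samples and between 872.9 and 1117.2 in wild-type samples. The probe sets of 1 gene share its transcript and are not replicates of each other.

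**Figure D2:**
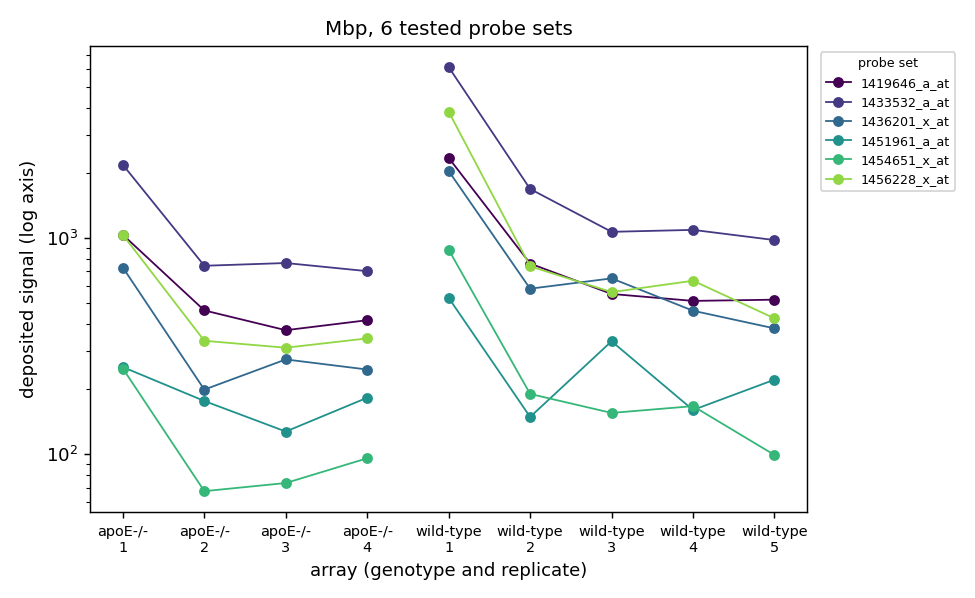
Deposited signal (log axis) of the 6 tested Mbp probe sets on the 4 apoE-/- and 5 wild-type arrays; lines join the points of 1 probe set within a genotype and give no order to the replicates. Every probe set is highest on wild-type replicate 1, where the brightest reads 6151.2, and 5 of the 6 are second highest on apoE-/- replicate 1, where the brightest reads 2175.3.

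Ugt8a, the enzyme that makes the myelin lipid galactosylceramide, was dim, present on 2 apoE-/- and 3 wild-type arrays. Its signals were 58.9, 42.9, 38.5 and 32.0 in apoE-/- samples, against 85.0, 48.4, 20.6, 34.1 and 10.2 in wild-type samples. Both replicate 1 arrays were the highest of their genotype, wild-type replicate 5 was the lowest of all, and the groups overlapped. This gave a log2 difference of 0.41 ± 0.55 (adjusted p = 0.762 by limma), and the highest array was 8.18 times the lowest.

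Cldn11, the claudin of myelin tight junctions, had signals of 280.3, 274.7, 353.7 and 366.7 in apoE-/- samples, against 229.1, 323.4, 204.5, 169.5 and 334.4 in wild-type samples. It was the 1 tested oligodendrocyte gene for which wild-type replicate 1 was not the highest: apoE-/- replicates 4 and 3 were. Its log2 difference was 0.34 ± 0.21 (adjusted p = 0.444 by limma), with overlapping groups. Cnp, an enzyme of uncompacted myelin, had signals of 1459.0, 1211.7, 1252.7 and 1307.2 in apoE-/- samples, against 2236.9, 1346.9, 1094.8, 1371.3 and 1104.4 in wild-type samples. Wild-type replicate 1 stood alone at the top and the remaining arrays of both genotypes were mixed. The log2 difference of Cnp was -0.07 ± 0.18 (adjusted p = 0.888 by limma), while its other tested probe set, highest on apoE-/- replicate 1, gave 0.24 ± 0.18.

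Ermn, a cytoskeletal protein of oligodendrocytes, ran between 124.5 and 148.5 in apoE-/- samples and between 100.4 and 203.5 in wild-type samples, with a log2 difference of 0.03 ± 0.22. Aspa, which breaks down N-acetylaspartate and so supplies acetate for myelin lipids, ran between 271.2 and 309.0 in apoE-/- samples and between 200.3 and 358.0 in wild-type samples, with a log2 difference of 0.07 ± 0.17. For both the apoE-/- values lay within the wild-type range, and wild-type replicate 1 was the highest array.

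The other 8 oligodendrocyte genes had no probe set present on 4 arrays. Mobp, a small protein of compact myelin, was present on apoE-/- replicate 1 and on wild-type replicates 1, 2 and 4, over its 5 probe sets. The brighter of its 2 probe sets with a present call had signals of 176.2, 20.6, 12.6 and 43.8 in apoE-/- samples, against 586.4, 108.8, 146.3, 71.3 and 73.0 in wild-type samples, with present calls on 1 apoE-/- array and on 2 of the wild-type ones. As for Mbp, the replicate 1 arrays were the highest of each genotype. Opalin, a membrane glycoprotein of oligodendrocytes, was present on apoE-/- replicate 3 and wild-type replicate 1, and Olig1, a transcription factor of the lineage, only on wild-type replicate 1. Mog and Mag, myelin proteins that serve as defining markers, were called present on no array, and neither were Myrf, a transcription factor that switches on myelin genes, and Gjb1, the connexin 32 gap junction protein.

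Sox10, a transcription factor of the oligodendrocyte lineage, had another order over the arrays than Mbp. It was called present on apoE-/- replicate 4 and wild-type replicate 1 only. Its brightest probe set had signals of 395.5, 495.0, 526.7 and 462.5 in apoE-/- samples, against 248.8, 279.7, 342.2, 262.3 and 310.5 in wild-type samples. Every apoE-/- array was above every wild-type array, and wild-type replicate 1, the highest array for Mbp, was the lowest for Sox10. When all probe sets were tested without the filter on detection, its log2 difference was 0.67 ± 0.14 and its adjusted p 0.0505 by limma. Its other 2 probe sets were called present on no array. The untested Cnp probe set, also present on no array, had separate groups in deposited signal too. It ran between 415.1 and 495.5 in apoE-/- samples and between 273.9 and 377.6 in wild-type samples. An untested probe set of the astrocyte gene Slc1a3, likewise present on no array, also had separate groups in deposited signal. That one ran between 25.0 and 57.1 in apoE-/- samples and between 11.4 and 24.4 in wild-type samples. How many probe sets that the filter removed separate in this way was not counted.

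The promoters of the oligodendrocyte genes were searched for the SOX core ACAAAG, the short motif that SOX factors such as Sox10 bind, in windows of 250 bases before to 50 after each gene's start (RefSeq, GRCm38.p6). Windows were at hand for 31 of the members. Counting both strands, the motif was in the windows of 5 of 10 oligodendrocyte genes (Mag, Mobp, Cnp, Opalin and Gjb1), 3 of 11 neuron genes (Syt1, Rbfox3 and Gad1) and 0 of 10 astrocyte genes, and in 18.7% of all 32851 windows. The windows of Mobp and Cnp are shown as examples, with each match in capitals, as ACAAAG or, on the opposite strand, CTTTGT. The windows of Mag, Opalin and Gjb1 are not shown. On the normalised scale Mobp, Cnp, Mag and Opalin had 1 or more probe sets highest on wild-type replicate 1. Gjb1 had none, its probe sets being highest on apoE-/- replicates 4 and 3. In deposited signal Mag, called present on no array, read 227.3 on apoE-/- replicate 2 and 226.0 on wild-type replicate 1. Whether the motif and the array order are related was not tested. The Mobp window lies at chr9:120149492-120149791 and the Cnp window at chr11:100574689-100574988, both on the + strand.
Mobp: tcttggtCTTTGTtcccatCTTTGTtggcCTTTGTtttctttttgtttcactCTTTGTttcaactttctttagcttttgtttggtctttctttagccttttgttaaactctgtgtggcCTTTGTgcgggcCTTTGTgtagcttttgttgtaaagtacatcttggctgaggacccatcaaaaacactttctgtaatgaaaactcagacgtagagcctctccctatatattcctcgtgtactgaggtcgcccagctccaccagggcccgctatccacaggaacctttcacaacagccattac
Cnp: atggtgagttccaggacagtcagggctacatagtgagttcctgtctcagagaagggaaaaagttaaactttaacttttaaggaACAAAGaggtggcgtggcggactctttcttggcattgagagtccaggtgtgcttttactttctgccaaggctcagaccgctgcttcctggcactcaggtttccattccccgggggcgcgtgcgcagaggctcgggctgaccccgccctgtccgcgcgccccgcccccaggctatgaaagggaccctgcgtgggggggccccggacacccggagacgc
Mobp held 6 matches, all on the opposite strand, at 243, 231, 221, 198, 132 and 120 bases before the start, and Cnp held 1, at 167 bases before it. A match describes these letters and is not a measured binding site. Other motifs searched on both strands were the RE1 core bound by the neuronal repressor REST (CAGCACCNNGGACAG), its first 7 letters alone (CAGCACC), which the core contains, and the NFI palindrome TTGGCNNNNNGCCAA. The RE1 core and the NFI palindrome were in 0 member windows and in 0.0365% of all windows each. Those first letters were in the windows of Syn1 and Ntsr2, and in 7.14% of all windows.

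Among the neuron genes, Snap25 came nearest to a difference between genotypes. It encodes a SNARE protein that drives fusion of synaptic vesicles. Its signals were 88.9, 179.0, 116.5 and 114.3 in apoE-/- samples, against 488.7, 210.1, 277.9, 157.9 and 156.5 in wild-type samples. Wild-type replicate 1 was the highest array, and the groups overlapped through apoE-/- replicate 2, which lay above wild-type replicates 4 and 5. Its log2 difference was -1.0 ± 0.29 (95% interval -1.63 to -0.37), with an unadjusted p of 0.00421 and an adjusted p of 0.094 by limma, so it did not pass over all probe sets. Without wild-type replicate 1 the difference was -0.74 (adjusted p = 0.13 by limma), and without both replicate 1 arrays -0.63 (adjusted p = 0.27). Its second tested probe set had a present call on no apoE-/- array and on 4 wild-type arrays, so it was tested only through the wild-type calls, and gave -0.77 ± 0.43 (adjusted p = 0.402 by limma).

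Syt1, the calcium sensor of transmitter release, had signals of 439.8, 592.9, 482.7 and 574.8 in apoE-/- samples, against 746.3, 534.1, 654.8, 573.0 and 521.5 in wild-type samples. On this probe set wild-type replicates 1 and 3 were the highest arrays, as on the brightest Snap25 probe set, and the groups overlapped. The log2 difference was -0.23 ± 0.14 (adjusted p = 0.442 by limma). The other tested Syt1 probe set was highest on apoE-/- replicate 4 and gave -0.11 ± 0.15. The second tested Snap25 probe set was highest on wild-type replicate 2, so the shared order held for the brightest probe sets only. Syp, an abundant synaptic vesicle protein, ran between 131.9 and 197.0 in apoE-/- samples and between 88.5 and 193.4 in wild-type samples, with a log2 difference of 0.15 ± 0.24.

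Vsnl1, a neuronal calcium sensor, had a present call on 1 apoE-/- array and on 3 of the 5 wild-type arrays. Its signals were 103.8, 101.1, 105.4 and 113.6 in apoE-/- samples, against 238.5, 138.2, 114.9, 150.6 and 57.0 in wild-type samples. The apoE-/- arrays lay close together, inside a wild-type range that ran from replicate 5 at the bottom to replicate 1 at the top, 4.04-fold on the normalised scale. The log2 difference was -0.31 ± 0.32 (adjusted p = 0.669 by limma).

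The genes that name a transmitter gave no common direction. Gad1, which makes the inhibitory transmitter GABA, had signals of 70.5, 91.5, 95.8 and 67.8 in apoE-/- samples, against 166.0, 108.0, 74.3, 134.5 and 43.1 in wild-type samples. Again wild-type replicate 1 was the highest and wild-type replicate 5 the lowest array, and the log2 difference was -0.27 ± 0.34 (adjusted p = 0.741 by limma). Gad2, the second GABA-making enzyme, ran between 74.1 and 123.5 in apoE-/- samples and between 75.7 and 109.8 in wild-type samples, with a log2 difference of 0.05 ± 0.23. Slc17a7, the vesicular glutamate transporter VGLUT1 of excitatory neurons, had signals of 74.2, 101.2, 128.7 and 83.8 in apoE-/- samples, against 61.8, 78.0, 72.6, 78.5 and 88.5 in wild-type samples. It was the 1 tested neuron gene whose lowest array was wild-type replicate 1, and its log2 difference was 0.29 ± 0.23 (adjusted p = 0.561 by limma).

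The remaining tested neuron genes were Rbfox3, the splicing factor known as NeuN, Stmn2, a microtubule regulator of growing axons, and Nefl, the light neurofilament. Their log2 differences were 0.12 ± 0.24 for Rbfox3, -0.22 ± 0.26 for Stmn2 and -0.29 ± 0.24 for Nefl, with adjusted p-values of 0.84, 0.724 and 0.578 by limma. Rbfox3 had a present call on 1 apoE-/- array and 4 wild-type ones, and Stmn2 on 2 apoE-/- and 3 wild-type ones. All 3 were highest on wild-type replicate 1, at 183.0, 109.0 and 176.3. No array had a present call for the other 6 neuron genes with a probe set: Nefm, the medium neurofilament, Camk2a, a kinase of excitatory synapses, Neurod6, a transcription factor of forebrain neurons, Syn1, a synaptic vesicle protein, Thy1, a surface glycoprotein, and Nrgn, a calmodulin-binding protein of dendrites. Of the 4 tested neuron genes above 0 and the 6 below, none passed the test, and the median log2 difference of the class was -0.23.

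The astrocyte genes had a median log2 difference of 0.19, with 7 above 0 and 1 below, none of which passed the test. Aldh1l1, a folate-metabolising enzyme, had the smallest p of the class. Its signals were 2206.6, 2300.6, 2530.5 and 2315.7 in apoE-/- samples, against 1769.8, 1897.1, 2174.5, 1782.0 and 1949.8 in wild-type samples. Only wild-type replicate 3 came near the apoE-/- arrays, and on the normalised scale it overlapped apoE-/- replicate 1. A log2 difference of 0.30 ± 0.09 (95% interval 0.10 to 0.50) came with an unadjusted p of 0.00661 and an adjusted p of 0.119 by limma.

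Aldoc, a glycolytic aldolase of astrocytes, had signals of 2155.5, 2302.6, 2079.1 and 1871.1 in apoE-/- samples, against 2079.3, 1576.0, 2343.6, 1667.8 and 1710.1 in wild-type samples. Wild-type replicates 3 and 1 reached the level of the apoE-/- arrays, the other wild-type arrays lay below it, and the log2 difference was 0.19 ± 0.13 (adjusted p = 0.493 by limma). Sox9, a transcription factor of glial fate, had signals of 1476.8, 1693.4, 1827.1 and 1914.0 in apoE-/- samples, against 1409.9, 1693.0, 1658.8, 1475.4 and 1649.0 in wild-type samples. The groups overlapped, and the log2 difference was 0.14 ± 0.10 (adjusted p = 0.536 by limma). The other 2 tested Sox9 probe sets gave -0.20 ± 0.14 and -0.22 ± 0.46, so the direction depended on the probe set.

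Fgfr3, a growth factor receptor of astrocytes and their precursors, had signals of 935.7, 772.5, 685.2 and 781.8 in apoE-/- samples, against 734.4, 654.6, 330.4, 840.6 and 786.0 in wild-type samples. Wild-type replicate 3 stood far below the other 8 arrays, which were mixed between genotypes. The log2 difference was 0.29 ± 0.22 (adjusted p = 0.55 by limma).

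The transport genes of astrocytes shared a pattern over the arrays. Slc1a3, the glutamate transporter GLAST, had signals of 190.4, 153.1, 134.4 and 113.5 in apoE-/- samples, against 188.3, 146.2, 98.0, 75.2 and 91.0 in wild-type samples. Aqp4, the water channel of astrocyte endfeet, had signals of 391.2, 310.8, 186.1 and 296.6 in apoE-/- samples, against 386.3, 341.9, 181.6, 163.2 and 218.6 in wild-type samples. For both genes apoE-/- replicate 1 and wild-type replicate 1 were the highest arrays and wild-type replicate 4 the lowest. The log2 difference was 0.31 ± 0.28 for Slc1a3 (adjusted p = 0.619 by limma) and 0.19 ± 0.27 for Aqp4 (adjusted p = 0.781). The second tested Aqp4 probe set had another order, with apoE-/- replicate 3 highest, and gave 0.37 ± 0.22.

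Gja1, the connexin 43 gap junction protein, ran between 817.7 and 1399.2 in apoE-/- samples and between 604.2 and 1224.4 in wild-type samples on its brightest probe set, with a log2 difference of 0.15 ± 0.20. Its 5 tested probe sets lay between -0.12 and 0.18. S100b, a calcium-binding protein, ran between 342.6 and 474.1 in apoE-/- samples and between 302.3 and 522.6 in wild-type samples, and its log2 difference was -0.03 ± 0.16, the 1 astrocyte value below 0. On the probe sets whose ranges are given, the replicate 1 arrays were the highest of their genotype for both Gja1 and S100b, but of the 5 tested Gja1 probe sets only 2 had that order.

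The other 4 astrocyte genes were not tested. Gfap, the intermediate filament protein of astrocytes, was called present on wild-type replicate 1 only. That probe set had signals of 246.7, 202.8, 183.5 and 161.4 in apoE-/- samples, against 185.6, 136.9, 152.9, 153.0 and 111.1 in wild-type samples. Its highest signal was thus on apoE-/- replicate 1, an array on which it was not called present. Slc1a2, the glutamate transporter GLT-1, was called present on apoE-/- replicate 1 and wild-type replicates 1 and 2. Its signals on that probe set were 268.2, 132.6, 115.3 and 142.7 in apoE-/- samples, against 462.6, 210.8, 132.1, 124.7 and 127.3 in wild-type samples, with the replicate 1 arrays highest as for Slc1a3. Ntsr2, a neurotensin receptor, was present on wild-type replicate 1 only, and Acsbg1, a fatty acid activating enzyme, on no array.

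**Figure D3:**
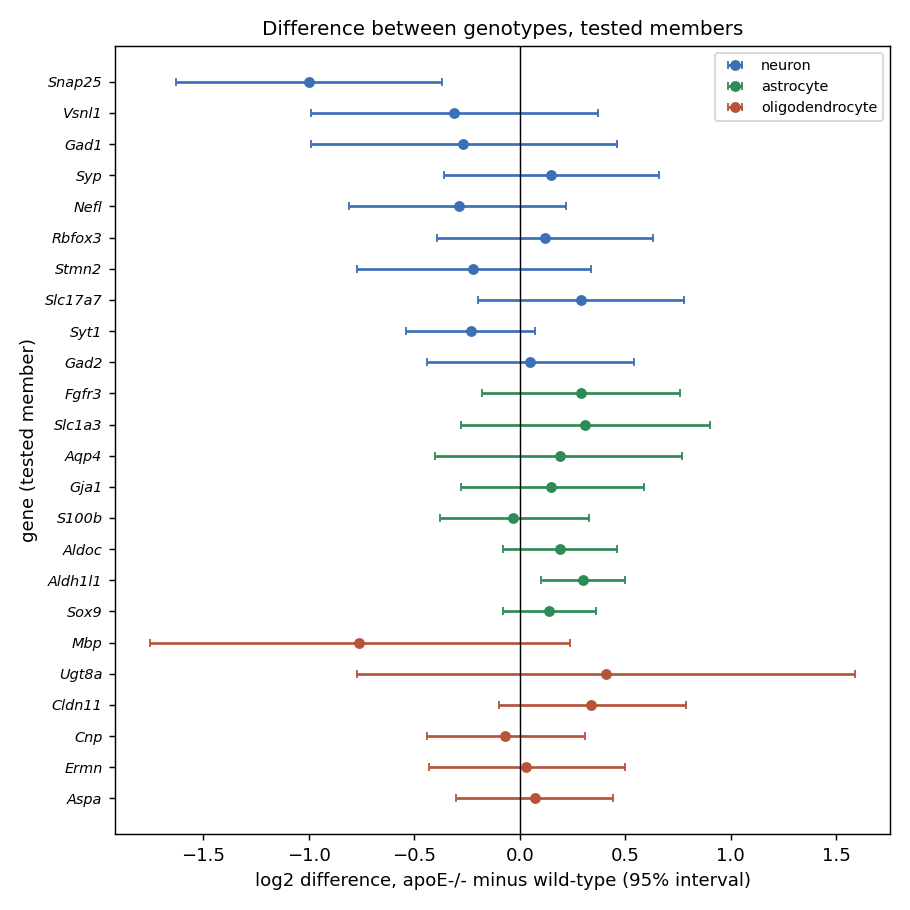
Log2 difference, apoE-/- minus wild-type, of the 24 tested genes with its 95% interval from limma (points and bars), coloured by class. The intervals of Snap25 (-1.63 to -0.37) and Aldh1l1 (0.10 to 0.50) do not reach 0 before adjustment over all probe sets; the other 22 do, and that of Mbp runs over -1.75 to 0.24.

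Detection, counted over all classes, was highest on wild-type replicate 1. Of the 42 genes, 25, 20, 22 and 21 had a probe set called present on the apoE-/- arrays, against 30, 25, 22, 23 and 21 on the wild-type arrays. That was 59.5%, 47.6%, 52.4% and 50% of the genes on the apoE-/- arrays and 71.4%, 59.5%, 52.4%, 54.8% and 50% on the wild-type arrays. Over all genes with a probe set the share lay between 57.9% and 61.8% on every array. Wild-type replicate 1 thus had the most markers detected, while its share over all genes, 60.2%, was inside the range of the others. By probe sets the difference was smaller: 42.2%, 30.4%, 31.4% and 35.3% of the 102 were called present on the apoE-/- arrays and 44.1%, 41.2%, 37.3%, 35.3% and 38.2% on the wild-type arrays, each below the share of all probe sets with 1 symbol on that array (51.4% on wild-type replicate 1). Of the 14 oligodendrocyte genes, 10 were detected on wild-type replicate 1 and 5 to 7 on any other array. Of the 12 astrocyte genes, 11 were detected on wild-type replicate 1 and 8 or 9 on any other array. For the 16 neuron genes that array did not stand out by present calls. There 9 were detected on apoE-/- replicate 1 and on wild-type replicates 1, 2 and 3, and 7 or 8 on the remaining arrays. With marginal calls counted as detected, wild-type replicate 1 had the most neuron genes, 12 of 16, against 7 to 10 on any other array. Of the 18 genes that were not tested, 7 were called present on wild-type replicate 1, and 3 of these, Gfap, Ntsr2 and Olig1, on no other array.

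The spread between arrays of the same genotype was wider for most of these genes than the median of probe sets of like signal. The residual SD on the log2 scale had a median of 0.36 for neuron, 0.33 for astrocyte and 0.35 for oligodendrocyte genes, against 0.22 over all tested probe sets and 0.10 for the epithelial markers. The range over the 9 arrays had a median of 1.11, 0.99 and 1.09 for these 3 classes in the same order, against 0.72 over all tested probe sets. Other genes of the same cell types, from lists that share none with the members, were not all this variable: the median residual SD was 0.35 for 11 other neuron genes, 0.16 for 9 other astrocyte genes and 0.18 for 8 other oligodendrocyte genes. Because dim probe sets vary more, each gene was set against the median of tested probe sets within 0.5 of its mean log2 signal: 18 of the 24 were above it, 7 of 10 neuron, 6 of 8 astrocyte and 5 of 6 oligodendrocyte genes. For Mbp the residual SD was 0.97 against 0.17 at that signal, for Snap25 0.55 against 0.30, and for Fgfr3 0.42 against 0.19. Aldh1l1 (0.11 against 0.16) and Sox9 (0.13 against 0.17) were among the 6 genes that were not above it.

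**Figure D4:**
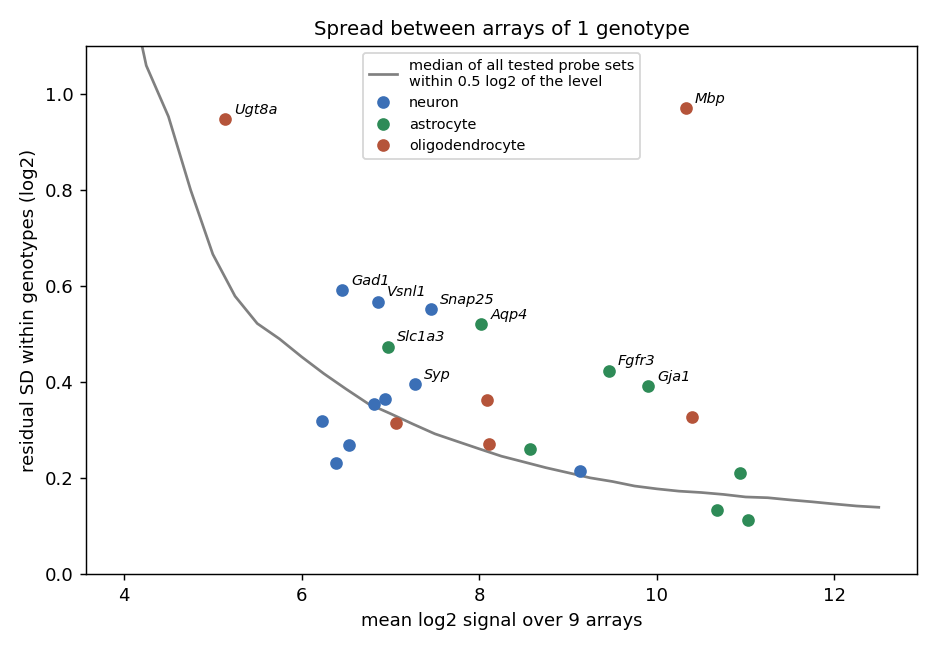
Residual SD within genotypes (log2) of the 24 tested genes against their mean log2 signal over 9 arrays; the grey line is the median over tested probe sets within 0.5 of each level, and genes with the widest spread are named. Of the 24 points 18 lie above the line, Mbp farthest at 0.97 against 0.17.

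Whether the 3 cell types moved together over the arrays was read from 1 gene of each. Over the 9 arrays Mbp and Snap25 had a Pearson r of 0.64 (exact permutation p = 0.0656, adjusted over 3 pairs 0.197) and a Spearman rho of 0.30 (p = 0.437, adjusted 0.655); without the 2 arrays farthest from the median of Mbp, r was 0.69. Mbp and Gfap had an r of 0.33 (exact permutation p = 0.353, adjusted 0.53) and a rho of 0.10 (p = 0.81, adjusted 0.81), with r at -0.49 without those 2 arrays. Snap25 and Gfap had an r of -0.23 (exact permutation p = 0.549, adjusted 0.549) and a rho of -0.32 (p = 0.41, adjusted 0.655), with r at -0.65 without the 2 arrays farthest from the median of Snap25. None of these relations passed. The pairs were also read with values centred within each genotype. Centred values were permuted over all 9 arrays, across genotypes, so their p-values are approximate and not exact. Mbp and Gfap then had an r of 0.83 (permutation p = 0.00928, adjusted 0.0278) but a rho of 0.53 (permutation p = 0.148, adjusted 0.443). Without both replicate 1 arrays that r was 0.33, so the relation rests on those 2 arrays. It also missed the threshold without normalisation between arrays (r = 0.77, permutation p = 0.0189, adjusted 0.0568). Mbp and Snap25 had a centred r of 0.55 (permutation p = 0.117, adjusted 0.176) and a rho of 0.37 (permutation p = 0.336, adjusted 0.504). Their r was 0.31 without the replicate 1 arrays. Snap25 and Gfap had a centred r of 0.42 (permutation p = 0.261, adjusted 0.261) and a rho of 0.15 (permutation p = 0.708, adjusted 0.708). Their r was 0.07 without the 2 farthest arrays. Points share arrays, and Gfap was called present on 1 of the 9.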

How the data were processed

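RNA of 9 laser-captured choroid plexus samples, 4 apoE-/- and 5 wild-type, was read on 1 array each. GCOS 1.4 made the values, per the submitters' processing notes. For every array the authors deposited a linear intensity and a detection call per probe set (45101); how intensities were made from the scans is not given in the sources used here. With 2% of probe sets trimmed from either end, each array averaged 500.0, so the deposited values had been scaled to a common mean. A second deposited table repeated all 405909 intensities. The 9 columns of detection p-values were left out, as 18 of the deposited p-values exceeded 1.

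Deposited intensities were taken to log2 and quantile normalised, since array medians spanned 0.214 and a span over 0.1 called for it. Controls (64) were dropped, and the 21478 probe sets with a present call on 4 or more of the 9 arrays were fitted with limma 3.58.1 in R 4.3.3 (lmFit, then eBayes with its trend option, no term but genotype, two-sided, Benjamini-Hochberg over all tested probe sets, adjusted p under 0.05). The fit was tested on simulated data. For a gene with several tested probe sets the brightest on average was used. Signals in the text are the deposited ones; differences, SEs, ranges and folds are from normalised log2 values. The annotation of the platform gave 1 symbol to 34958 probe sets and several to 932, and it did not list 9211.

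The members, the lists and the tests were chosen with earlier results of these data known. The naming rule took Snap25, Gfap and Mbp, any gene that passed or whose groups did not overlap, and in each class the 3 smallest p-values and 3 widest ranges; other members are given more briefly. No list was tested as a set. Alternatives were other normalisations, filters, an offset, no variance trend, array weights, the replicate number as a block, each array left out, both replicate 1 arrays left out (chosen after seeing the data), the median probe set, and marginal calls counted as detected. Promoter windows are from RefSeq, GRCm38.p6.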

Additional observations from a re-analysis of the deposited data

Results flagged for a closer look

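For each tested gene the highest and the lowest array of a genotype were set against the other arrays of that genotype, by the gap to the nearest array as a share of the whole range. Of 48 pairs of a gene and a genotype, 2 had an array far from the rest; chance flags about 1 in 20 such pairs. For Mbp in apoE-/- mice, replicate 1 was the highest and its gap to the nearest array took up 0.931 of the range: it read 11.06 on the normalised log2 scale, against 9.53, 9.57 and 9.46 on the other apoE-/- arrays. For Fgfr3 in wild-type mice, replicate 3 was the lowest and its gap took up 0.744 of the range: it read 8.40, against 9.54, 9.39, 9.73 and 9.59 on the other wild-type arrays.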

How the results depend on the processing

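Of the 24 tested genes, 16 kept their direction in every one of the 20 alternatives that could be fitted for them, and 22 were called in none. Array weights called 1 gene higher, Aldh1l1 (0.32, adjusted p = 0.044 by limma; 0.25 to 0.35 and 0.044 to 0.338 over its alternatives). With the replicate number as a block 1 gene was called lower, Mbp (-0.95, adjusted p = 0.0145 by limma). Over its alternatives Mbp lay between -1.14 and -0.29, with an adjusted p of 0.0145 to 0.694 by limma. The labels do not say whether the numbers pair the arrays, and this was not tested. Deviations of same-numbered arrays correlated at 0.16, -0.015, 0.031 and 0.008 for replicates 1 to 4. Those of apoE-/- and wild-type arrays with different numbers correlated at -0.116 to 0.136. Each array left out in turn called 0 of the 24 genes, and so did leaving out both replicate 1 arrays. Snap25 lay between -1.17 and -0.63 with an adjusted p of 0.0654 to 0.27 by limma.

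Over all tested probe sets 144 were called higher and 412 lower by limma. These counts were 81 and 248 with no filter on detection, 57 and 252 without the variance trend, 372 and 706 with array weights, and 73 and 234 without both replicate 1 arrays. With 1 array left out they ran between 56 and 236 higher and between 207 and 525 lower. The higher count moved by over 1.5 times without apoE-/- replicates 1 (89), 2 (65), 3 (56) or 4 (236) or wild-type replicates 2 (89) or 4 (72), and the lower count without apoE-/- replicate 3 (207) or wild-type replicate 4 (213). The cause was not tested.

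Direction turned for 8 genes, all with an uncalled difference. S100b read 0.01 without normalisation, 0.03 with array weights and -0.13 to 0.09 with 1 array left out. Gad2 read -0.18 without the filter, where a probe set called present on no array was its brightest. On its tested probe set Gad2 read -0.0015 with the replicate block and -0.03 to 0.20 with 1 array left out. Ermn and Aspa read -0.01 and -0.03 with the replicate block, and -0.08 to 0.19 and -0.03 to 0.17 with 1 array left out. Cnp read 0.06 without both replicate 1 arrays, 0.09 as the median over its probe sets and -0.15 to 0.11 with 1 array left out. Syp read -0.04 to 0.26 with 1 array left out, Slc1a3 -0.52 without the filter, where a probe set that the filter removed was its brightest, and Sox9 -0.20 as the median over its probe sets. Signal near background limits Ugt8a, Rbfox3, Stmn2 and Vsnl1, present on 5 of 9 arrays or fewer, and the 18 genes that were not tested.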

Other observations

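Further genes of the same cell types, from lists that do not overlap the members, also had 0 genes passing by limma (1 neuron, 3 astrocyte, 0 oligodendrocyte and 0 precursor genes at an unadjusted p under 0.05). Of the other neuron genes 11 of 24 were tested, with a median log2 difference of -0.22. Nefh, the heavy neurofilament, had signals of 752.7, 715.9, 419.9 and 902.0 in apoE-/- samples, against 928.8, 1362.2, 963.0, 1122.0 and 954.1 in wild-type samples (-0.66 ± 0.19, adjusted p = 0.0902 by limma), and wild-type replicate 1 was its lowest wild-type array. Of the other astrocyte genes 9 of 16 were tested, with a median of 0.15. Sparcl1, a secreted matrix protein, had signals of 2087.7, 1729.4, 1606.4 and 1762.2 in apoE-/- samples, against 1605.5, 1336.6, 1037.9, 1499.0 and 1345.7 in wild-type samples (0.41 ± 0.13, adjusted p = 0.109 by limma). Of the other oligodendrocyte genes 8 of 15 were tested, with a median of 0.01. Of the oligodendrocyte precursor genes 3 of 8 were tested, with a median of 0.08. On wild-type replicate 1 the median of each list, centred on each gene's mean, was 0.20 for the other neuron, -0.01 for the other astrocyte, 0.24 for the other oligodendrocyte and -0.26 for the precursor genes, and that array was the highest for 4 of 11, 0 of 9, 2 of 8 and 0 of 3 of them. The median range over the arrays was 1.03 for the other neuron genes, 0.54 for the other astrocyte and 0.54 for the other oligodendrocyte genes, and 0.84 for the precursor genes.

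Markers of ependyma, the ciliated lining of the ventricles, were tested for 8 of 10 genes, with a median log2 difference of 0.17 and 0 genes passing by limma (3 at an unadjusted p under 0.05). Foxj1, a transcription factor of motile cilia, had signals of 1763.4, 2166.0, 1092.8 and 1962.2 in apoE-/- samples, against 1923.5, 1369.4, 802.2, 825.7 and 906.7 in wild-type samples (0.63 ± 0.25, adjusted p = 0.227 by limma). Rarres2, a secreted chemerin precursor, had signals of 886.3, 660.5, 643.0 and 605.8 in apoE-/- samples, against 593.5, 379.7, 623.8, 360.2 and 566.0 in wild-type samples (0.47 ± 0.18, adjusted p = 0.205 by limma). Wild-type replicate 1 was the highest of the 9 arrays for 1 of the 8 ependyma genes, and apoE-/- replicate 1 for 4 of the 8. Genes of brain regions near the ventricles had 0 passing: 5 of 10 tested for hippocampal granule and pyramidal neurons (median -0.01), 5 of 9 for thalamus and habenula (-0.04) and 2 of 10 for cerebellum and hindbrain (0.07), with 0 at an unadjusted p under 0.05 in each.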
